A study of Mus musculus with 12 samples.

Results

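The contrast described here asks whether the glomeruli of a pair of inbred mouse substrains changed their RNA differently after adriamycin (ADR). The substrains are BALB/cAjcl, called Ajcl here, and its sister BALB/cByJcl, called ByJcl. For each gene, the log2 change from baseline to Day 5 in Ajcl was subtracted from that in ByJcl, and this difference is called the interaction. A positive value means that the ByJcl change was the more positive of the 2, and 1 on this scale is a doubling. The contrast needs all 4 groups of the series, so its members are all 12 of the 12 libraries and all genes of the deposited count tables, and each result was computed again over the 11 libraries without A-ADR1. That library, replicate 1 of the Ajcl Day 5 group, was set aside in the study for low glomerular purity.

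All animals were 8-week-old males, and each of the 4 groups held 3 libraries of RNA from isolated glomeruli. Baseline animals of either substrain were untreated, and Day 5 animals had received ADR (doxorubicin) once at 10 mg/kg into the retro-orbital veins. No vehicle-injected Day 5 library was analysed here, and the baseline and Day 5 counts stand in separate tables, so ADR cannot be told apart from the injection, the passage of time or the tables. The labels do not say how many animals a library holds, so p-values measure the spread between these libraries, which may be partly technical. The library names follow the count tables: A-Ctrl and A-ADR for Ajcl, B-Ctrl and B-ADR for ByJcl, each with its replicate number.

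ADR is an anthracycline that intercalates into DNA and traps topoisomerase II, which breaks DNA strands and activates p53. In mice of susceptible strains it injures podocytes, the epithelial cells whose interlocking foot processes and slit diaphragms form the outer layer of the glomerular filter. Injured podocytes rearrange their actin cytoskeleton and lose slit diaphragm proteins, and the neighbouring endothelial and mesangial cells respond to the damage. In bulk glomerular RNA, fewer cells of a type and less RNA per cell cannot be told apart.

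Libraries held between 42198416 and 54687045 counts over 26264 gene symbols. Most low counts were even numbers, so whether a count stands for a read or for a read of a pair counted with its mate is not known, and the counts printed below are as deposited. Levels are given as CPM, the counts of a gene relative to its library's total, after TMM scaling, which corrects library sizes for differences in composition. The 3 Ajcl Day 5 libraries varied more than any other group, with a median SD over genes of 0.24 on the log2 scale against 0.17 for ByJcl at Day 5, 0.17 for Ajcl at baseline and 0.13 for ByJcl at baseline. The SD between A-ADR2 and A-ADR3 alone was 0.12, and A-ADR1 lay farther from both, at 0.22 and 0.24. Tubular RNA differed between libraries of every group: the mean log2 level of 30 proximal tubule genes was highest in A-ADR1 at 8.34 and A-Ctrl3 at 8.03, and lowest in B-ADR1 at 4.82 and B-Ctrl1 at 4.93. None of the 30 was at 0 in every library. Podocyte, endothelial and mesangial markers were detected in every library, and the podocyte list held the highest mean level of the 3.

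No gene passed the test of the interaction by edgeR. Over 12 libraries, the quasi-likelihood test of edgeR with p-values adjusted after Benjamini and Hochberg was run on 16612 genes and called 0 at an adjusted p below 0.05. At an unadjusted p below 0.05 there were 801 genes, 4.82% of those tested, of which 475 had a positive interaction (2.86%) and 326 a negative one (1.96%). Without A-ADR1 the same test called 0 of 17002 genes, with 1363 at an unadjusted p below 0.05 (8.02%), 656 positive (3.86%) and 707 negative (4.16%). On the 12 libraries limma-voom also called 0, with 794 at an unadjusted p below 0.05, whereas DESeq2's Wald test called 7, 0.0421% of the genes tested. Those 7 were Col5a3, Glipr2, H2-Q6, Psrc1, Asns and Fosl1 with a positive interaction (0.0361%) and Ube2ql1 with a negative one (0.00602%). Without A-ADR1, DESeq2 called 22 (0.129%), 14 positive (0.0823%) and 8 negative (0.0471%), and 6 of the 7 were among them, Fosl1 being the exception. In edgeR, leaving out A-ADR3 in place of A-ADR1 gave 2 calls, Col5a3 and Trabd2b, and leaving out any other single library gave 0. The interaction results below are therefore given as values with their errors, and the smallest adjusted p by edgeR over the 12 libraries was 0.748, shared by Col5a3 and Glipr2. Every other gene had 0.983 or more.

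The 2 responses that the contrast subtracts were called at very different numbers. In Ajcl, edgeR called 54 genes (0.325%), 47 higher (0.283%) and 7 lower (0.0421%) at Day 5, and in ByJcl 1197 genes (7.21%), 733 higher (4.41%) and 464 lower (2.79%). By DESeq2 the Ajcl count was 326 (1.96%). The counts rested on single libraries, from 13 without A-Ctrl2 to 148 without A-ADR2 in Ajcl, and from 430 without B-ADR2 to 1800 without A-ADR1 in ByJcl. Of the 47 genes that rose in Ajcl, 45 (95.7%) also rose in ByJcl, which is 6.14% of the 733, and 6 of the 7 that fell in Ajcl (85.7%) were among the 464 that fell in ByJcl (1.29%). None was called in opposite directions. The 733 genes called higher in ByJcl had a median change of 1.20 in ByJcl and 0.61 in Ajcl, and the 464 called lower had a median of -1.01 in ByJcl and -0.46 in Ajcl. These genes were chosen by the ByJcl libraries, so the larger value in ByJcl is a description of the choice. The 47 genes chosen by their rise in Ajcl had a median of 2.24 in Ajcl and 2.44 in ByJcl, and 13 of them changed more in Ajcl.

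Single Ajcl libraries differed in how far they moved along the ByJcl response. Against the mean of their own baseline, the 733 genes stood at a median of 0.32 in A-ADR1, 0.20 in A-ADR2 and 0.58 in A-ADR3. In the ByJcl Day 5 libraries, which chose the genes, the medians were 0.82, 1.02 and 0.75. The 464 genes called lower stood at -0.57, -0.19 and -0.59 in the Ajcl libraries and at -0.79, -1.07 and -0.92 in the ByJcl libraries. A-ADR2 was thus nearest to its baseline for both sets of genes. The proximal tubule levels of the 3 Ajcl libraries were 8.34, 7.31 and 6.88, and their part in these medians was not tested. Across all genes tested, the changes in the 2 substrains had a Pearson correlation of 0.679 and a Spearman correlation of 0.517. Genes are not independent replicates, and both changes come from the same fit. The sign was the same in both substrains for 11465 genes (69.0%).

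**Figure D1:**
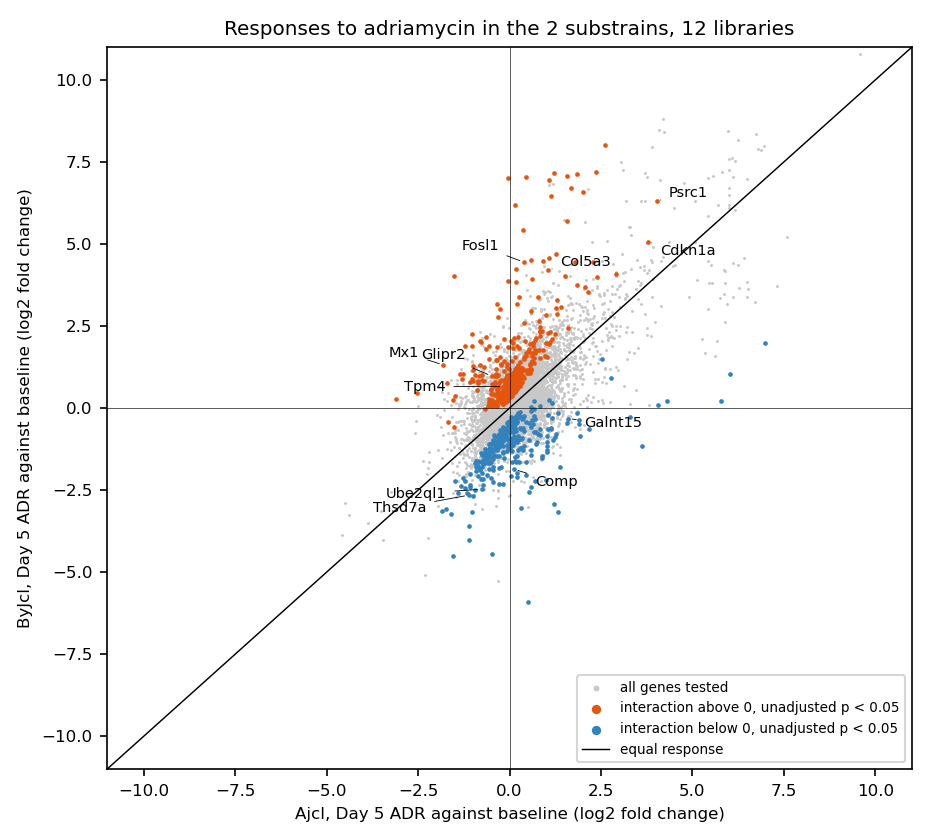
Change from baseline to Day 5 after ADR in Ajcl (horizontal axis, log2) and in ByJcl (vertical axis, log2) for 16612 genes over 12 libraries. Coloured dots are the 801 genes with an unadjusted interaction p below 0.05, orange above the line of equal response (475) and blue below it (326), and none passed adjustment in edgeR.

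How large a difference the libraries could have shown can be read from the intervals. The median SE of the interaction was 0.30 on the log2 scale, against 0.22 for the response of either substrain alone. The 95% confidence interval of the interaction lay wholly between -1 and 1 for 9113 genes (54.9%), so for these a response differing by more than 2-fold between substrains was outside the interval. Among the 10127 genes with an average of at least 10 CPM, the share was 80.4% (8145 genes). An estimate beyond 1 in either direction was found for 1309 genes (7.88%). For the other 7499 genes (45.1%) the interval reached past 1 or -1, so that a difference of that size lay within it. The intervals are for single genes and are not adjusted for the number of genes.

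The 12 genes with the smallest p in each direction were named by rule. All 12 with a positive interaction rose in ByJcl, and 1 of them, Psrc1, rose in Ajcl too. Of the 12 with a negative interaction, 11 fell in ByJcl and none passed in Ajcl by edgeR. The Ajcl change had the sign of the ByJcl change in 7 of the 12 positive and 9 of the 12 negative genes and the opposite sign in the remaining 5 and 3. The genes were chosen by this contrast, so these counts describe the choice.

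The gene with the smallest p was Col5a3 (chromosome 9, 20681337 to 20726418, GRCm39), which encodes a chain of type V collagen, a minor fibrillar collagen that is assembled with type I collagen. In Ajcl it stood at 2.77, 3.84 and 3.72 CPM at baseline and at 4.42, 4.33 and 12.6 CPM at Day 5. In ByJcl the baseline libraries held 3.18, 3.90 and 3.21 CPM and the Day 5 libraries 62.8, 77.3 and 50.8 CPM. The baselines overlapped, A-ADR3 was the highest Ajcl library, and every ByJcl Day 5 library lay far above it. In 882 genes (5.31% of those tested) the ByJcl Day 5 libraries lay above all libraries of the other 3 groups, as they did for Col5a3. The log2 change was 4.21 in ByJcl (adjusted p = 0.000332, edgeR) and 1.05 in Ajcl (adjusted p = 0.346), and the interaction was 3.16 ± 0.51 (SE), with a 95% interval from 2.04 to 4.29. Without A-ADR1 the interaction was 2.88. Without A-ADR3 it was 3.87 (adjusted p = 0.000766, edgeR).

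Glipr2 (chromosome 4, 43957401 to 43979118, GRCm39), a Golgi-associated protein of the CAP superfamily, stood at 6.80, 6.88 and 6.85 CPM in the ByJcl baseline libraries and 13.1, 13.1 and 14.2 CPM at Day 5. In Ajcl the values were 10.2, 9.91 and 6.90 CPM at baseline and 6.84, 5.35 and 7.05 CPM after ADR. The gene rose in every ByJcl library by about the same amount, whereas the Ajcl libraries overlapped with their baseline. Its interaction was 1.46 ± 0.25, and 1.49 without A-ADR1. Fosl1 (chromosome 19, 5497575 to 5505974, GRCm39), which encodes the AP-1 transcription factor subunit FRA-1, was near the limit of detection in 9 libraries, at 2 to 15 counts each. The ByJcl Day 5 libraries held 55, 122 and 128 counts, or 1.23, 2.80 and 2.74 CPM, and did not overlap with the rest. The log2 change was 4.45 in ByJcl (adjusted p = 0.00270, edgeR) and 0.39 in Ajcl, and the interaction of 4.06 had a wide interval, from 2.10 to 6.02.

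Shisa4, a transmembrane protein of the Shisa family, rose in ByJcl by 1.41 and stood at 0.28 in Ajcl. Nipal1, a magnesium transporter family member, rose by 2.97 against 0.58, from only 8, 12 and 12 counts in the ByJcl baseline libraries. For both genes every ByJcl baseline library lay below every Ajcl baseline library, as in 6.5% of all genes tested. At Day 5 the ByJcl level was above the Ajcl level by 0.66 for Shisa4 and 0.84 for Nipal1 (log2). Tubb6, a beta-tubulin, stood at 16.8, 17.3 and 18.7 CPM in Ajcl at baseline and 22.0, 16.0 and 23.6 CPM at Day 5. In ByJcl it went from 12.9, 14.7 and 19.1 CPM to 36.0, 44.9 and 35.6 CPM. Each ByJcl Day 5 library lay above every other library of the series, and A-ADR3 was again the highest in Ajcl. The interaction of Tubb6 was 1.10 ± 0.26, with an interval from 0.53 to 1.66, and 1.12 without A-ADR1. Atcay, which encodes the neuronal protein caytaxin, had 0 counts in every ByJcl baseline library and 14, 11 and 21 counts at Day 5, against 2 to 9 counts in the Ajcl libraries, so no fold is given.

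**Figure D2:**
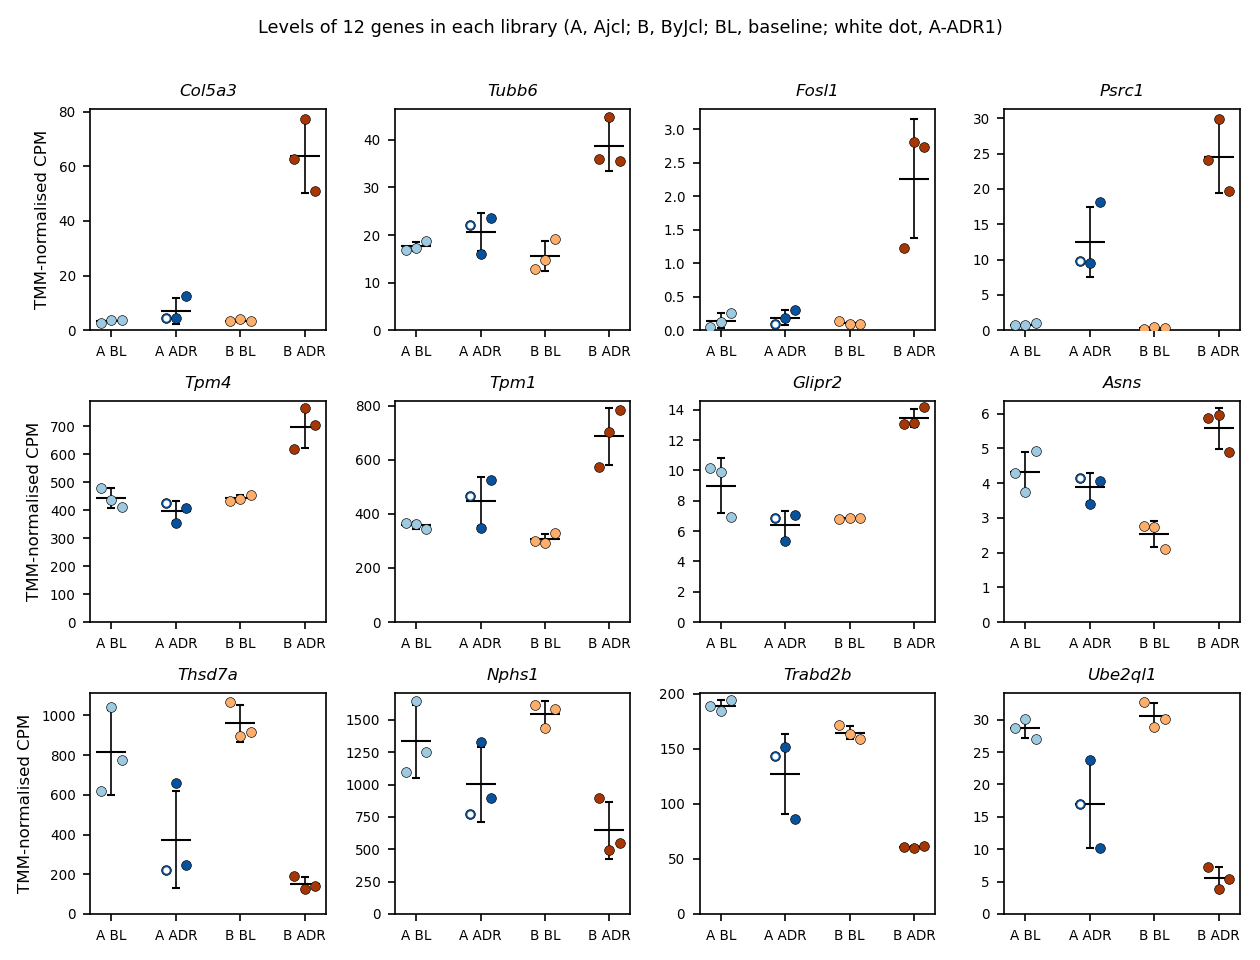
TMM-normalised CPM of 12 genes in each of the 12 libraries (vertical axes start at 0), with the mean and SD of each group of 3 as horizontal lines and bars. The white dot is A-ADR1, A and B stand for Ajcl and ByJcl, and BL for baseline. For Col5a3, Tubb6, Fosl1, Psrc1, Tpm4, Tpm1, Glipr2 and Asns each ByJcl Day 5 library lay above every Ajcl Day 5 library.

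Of the 33 gene lists, the tropomyosin and actin crosslinker list had the largest share of members with an unadjusted p below 0.05. The list is named for tropomyosins and actin crosslinkers, proteins that stabilise and bundle actin filaments. It also held actins, regulators of actin assembly and tubulins, Tubb6 among them. Of its 30 tested genes, 29 had a positive interaction. Of the 30, 16 had an unadjusted p below 0.05 (53.3%) in the positive direction and 0 in the negative one, against 2.86% and 1.96% of all genes tested. These shares are the background of each list's count below, and 3.86% and 4.16% are that of the counts without A-ADR1. The median interaction was 0.55 over the list and 0.00 over all genes tested. In ByJcl 14 of the 30 rose, where 4.41% of all genes tested did, and none fell. In Ajcl edgeR called 0 of the 30, with 1 higher and 3 lower at an unadjusted p below 0.05, a level that 5.32% and 3.78% of all genes tested reached, and DESeq2 called 1. Without A-ADR1 the median was 0.57 and 19 genes had an unadjusted p below 0.05. Leaving out A-ADR2 in its place gave 0.43 with 13 such genes, and leaving out A-ADR3 gave 0.58 with 19. The mean log2 level of the list lay between 7.91 and 7.96 in the ByJcl baseline libraries and at 8.38, 8.47 and 8.42 after ADR. In Ajcl it lay at 7.93, 7.94 and 7.85 at baseline and at 7.87, 7.74 and 8.01 after ADR, so the groups of Ajcl overlapped.

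The 4 tropomyosin genes were not alike. Tropomyosins are coiled-coil proteins that lie along actin filaments and control the access of myosin and other actin-binding proteins. Tpm4 (chromosome 8, 72884018 to 72906987, GRCm39) stood at 481, 436 and 410.4 CPM in Ajcl at baseline and 426, 356 and 409.5 CPM at Day 5, against 433, 440.0 and 455 CPM and 619, 767 and 706 CPM in ByJcl. Its interaction was 0.81 ± 0.17, with the ByJcl Day 5 libraries above all others. Tpm1 (chromosome 9, 66929870 to 66956953, GRCm39) stood at 367, 361 and 344 and then 466, 347 and 525 CPM in Ajcl, and at 299.7, 291 and 329.7 and then 575, 704 and 785 CPM in ByJcl. The interaction was 0.85 ± 0.23, and 2 of the 3 Ajcl Day 5 libraries lay above every Ajcl baseline library. Tpm2 differed from both, since its ByJcl libraries stayed between 55.1 and 69.4 CPM at both times (log2 change 0.07), while Ajcl held 75.9, 68.1 and 65.3 CPM at baseline and 67.4, 44.9 and 39.1 CPM after ADR. Its interaction was 0.54 ± 0.25 over 12 libraries and 0.78 over 11. Tpm3 had an interaction of 0.41 ± 0.20, which was 0.26 without A-ADR1, and both intervals included 0.

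Other actin-binding genes were higher in ByJcl after ADR as well. Tagln2 (chromosome 1, 172327426 to 172334947, GRCm39), encoding transgelin 2, stood at 308, 301 and 277 and 351, 291 and 360.2 CPM in Ajcl and at 316, 323 and 306 and 539.6, 564 and 568 CPM in ByJcl. Cald1 (chromosome 6, 34575435 to 34752408, GRCm39), the gene of caldesmon, an inhibitor of actomyosin, had a log2 change of 0.77 in ByJcl (adjusted p = 0.00385, edgeR) and 0.08 in Ajcl. The interactions were 0.65 ± 0.16 and 0.68 ± 0.17, and both were among the genes that DESeq2 called without A-ADR1, with Tpm4 and Tpm2. Lgals1, encoding the beta-galactoside-binding lectin galectin 1, was called there too, with 34.9, 27.2 and 27.9 and 56.7, 27.8 and 45.5 CPM in Ajcl and 28.9, 28.2 and 27.3 and 91.3, 121 and 80.5 CPM in ByJcl. The smooth muscle list, which shares the contractile theme, had a median interaction of 0.31 over 14 genes with 1 at an unadjusted p below 0.05 (2 without A-ADR1). That gene, Tagln, had an interaction of 0.75 ± 0.27, whereas Acta2, smooth muscle actin, had 0.36 ± 0.22 (0.205 without B-ADR2) and log2 changes of 0.12 in ByJcl and -0.24 in Ajcl.

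Promoter windows of 6 genes are printed to show the sequence next to the start site of genes that the results turn on. They come from RefSeq on GRCm38.p6, run 5′ to 3′ on the strand of the gene from 250 bases before to 50 after the start site, and capitals mark every match of the motifs searched. The motifs searched on both strands were AP-1 (TGANTCA), TEAD (GGAATG), the CHOP-ATF composite element (TGATGNAAN), the CArG box and the p53 decamer, a single unit of the pair that makes up a full p53 response element. Full p53 elements were not searched for. Glipr2 (chr4:43957452-43957751, + strand) holds a CArG box, the element bound by serum response factor, whose first base lies 84 bases before the start. Tpm1 (chr9:67049164-67049463, - strand) holds a TEAD match 56 bases and a p53 decamer 92 bases before the start, and Tagln2 (chr1:172499996-172500295, + strand) holds 2, at 118 and 80 bases. Asns (chr6:7693160-7693459, - strand) holds a CHOP-ATF element 23 bases before the start. F3 (chr3:121723287-121723586, + strand) holds AP-1 matches 146 and 135 bases before the start. Col5a3 (chr9:20815018-20815317, - strand) holds none of the motifs and is shown as the gene with the smallest p. The other windows were picked for display because they hold a match.
Col5a3: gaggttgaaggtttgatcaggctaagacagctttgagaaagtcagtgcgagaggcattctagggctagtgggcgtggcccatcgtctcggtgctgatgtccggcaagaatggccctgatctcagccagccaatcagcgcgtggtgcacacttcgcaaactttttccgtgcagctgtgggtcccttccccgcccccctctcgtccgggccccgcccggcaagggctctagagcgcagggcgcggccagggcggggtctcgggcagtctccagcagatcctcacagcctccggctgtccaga
Glipr2: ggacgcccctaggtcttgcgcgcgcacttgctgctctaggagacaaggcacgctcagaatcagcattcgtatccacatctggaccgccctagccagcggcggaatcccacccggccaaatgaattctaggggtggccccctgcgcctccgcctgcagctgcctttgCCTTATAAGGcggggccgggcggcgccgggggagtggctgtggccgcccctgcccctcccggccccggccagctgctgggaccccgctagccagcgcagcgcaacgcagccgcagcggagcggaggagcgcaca
Tpm1: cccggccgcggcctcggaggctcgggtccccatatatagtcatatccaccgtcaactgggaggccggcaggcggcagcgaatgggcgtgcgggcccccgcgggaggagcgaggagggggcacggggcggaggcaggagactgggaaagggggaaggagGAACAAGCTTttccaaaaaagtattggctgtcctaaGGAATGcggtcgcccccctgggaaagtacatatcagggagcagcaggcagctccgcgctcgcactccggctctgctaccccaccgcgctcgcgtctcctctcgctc
Tagln2: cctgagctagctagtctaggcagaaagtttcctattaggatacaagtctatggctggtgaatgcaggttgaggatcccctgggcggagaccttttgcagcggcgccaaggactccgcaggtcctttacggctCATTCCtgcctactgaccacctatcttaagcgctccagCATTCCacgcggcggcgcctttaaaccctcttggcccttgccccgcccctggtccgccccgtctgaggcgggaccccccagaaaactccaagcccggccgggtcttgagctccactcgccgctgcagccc
Asns: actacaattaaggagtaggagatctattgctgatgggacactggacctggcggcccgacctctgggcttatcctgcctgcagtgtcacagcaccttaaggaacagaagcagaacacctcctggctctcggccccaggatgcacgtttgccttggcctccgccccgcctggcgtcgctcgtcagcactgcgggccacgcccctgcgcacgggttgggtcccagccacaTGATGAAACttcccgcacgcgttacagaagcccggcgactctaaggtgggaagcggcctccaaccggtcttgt
F3: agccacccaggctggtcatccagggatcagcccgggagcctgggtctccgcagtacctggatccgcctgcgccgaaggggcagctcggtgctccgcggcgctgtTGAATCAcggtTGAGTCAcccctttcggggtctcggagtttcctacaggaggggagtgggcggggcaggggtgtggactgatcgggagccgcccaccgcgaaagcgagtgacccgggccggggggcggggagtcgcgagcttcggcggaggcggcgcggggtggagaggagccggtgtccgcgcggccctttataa

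A match is a description of the letters and not a bound site, and a window without one says nothing of the factor. Each motif was counted on its own, also where matches of different motifs overlapped. Over the promoter windows of 27025 genes, 1.81% held a CArG box, 16.6% a TEAD match, 8.97% an AP-1 match, 4.5% a CHOP-ATF element and 9.55% a p53 decamer. Of the 30 tropomyosin and actin crosslinker genes, 27 had a window, and 4 of the 27 held a CArG box (14.8%), 8 a TEAD match (29.6%), 4 an AP-1 match, 4 a p53 decamer (14.8% each) and 0 a CHOP-ATF element. Among 29 p53 targets with a window, 10 held a p53 decamer (34.5%). Of 30 genes of the unfolded protein and integrated stress response with a window, 7 held a CHOP-ATF element (23.3%). The p53 and stress lists are lists of targets of these factors, so their shares are no test. The members of the tropomyosin and actin crosslinker list were chosen by theme, so its shares are no test of the interaction either. Of 95 named genes, 73 had a window.

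Matrix genes had interactions of both signs. The basement membrane list had a median interaction of 0.14 over 25 genes, which was -0.16 without A-ADR1. At an unadjusted p below 0.05 stood 2 positive and 0 negative members, and 0 and 3 without A-ADR1. Col4a1 and Col4a2, the neighbouring genes of the main type IV collagen chains of vascular basement membranes, were 2 of its members. Col4a1 (chromosome 8, 11248423 to 11362826, GRCm39) stood at 625, 774 and 642 CPM in ByJcl at baseline and 1719, 1303 and 1045 CPM at Day 5, against 428, 567 and 639 and 431, 573 and 817 CPM in Ajcl. It rose in ByJcl by 0.99 (adjusted p = 0.0336, edgeR), and the interaction of 0.84 ± 0.35 was 0.61 without A-ADR1. For Col4a2 the interaction was 1.04 ± 0.41 and 0.79. The interstitial matrix list had a median of 0.03 over 31 genes, which turned to -0.05 without A-ADR1. Within it Loxl1 (chromosome 9, 58195014 to 58220495, GRCm39), a lysyl oxidase that crosslinks elastin, rose in ByJcl by 0.94 against 0.13 in Ajcl, with an interaction of 0.81 ± 0.23. Col1a2, a chain of type I collagen, fell in ByJcl by 2.14 on the log2 scale, from 514, 427 and 436 to 146, 81.2 and 85.2 CPM, and its interaction was -0.87 ± 0.34. In Ajcl the change of Col1a2 was -1.26 (adjusted p = 0.0619).

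Genes that regulate proteolysis had a median interaction of 0.53 over 17 genes, with 14 positive and 4 at an unadjusted p below 0.05. Over all genes tested, 2.86% were positive at that level. In ByJcl 8 of the 17 rose, beside 4.41% of all genes. In Ajcl edgeR called 0, with 6 higher at an unadjusted p below 0.05, where 5.32% of all genes were, and DESeq2 called 1. The list held Serpine2 (chromosome 1, 79763323 to 79839144, GRCm39), the gene of protease nexin 1, an inhibitor of thrombin and plasminogen activators, with 533, 496 and 482 and 954, 874 and 963 CPM in ByJcl and 508, 444 and 410.3 and 566, 501 and 613 CPM in Ajcl. Its interaction was 0.58 ± 0.17. Adamts1 and Adamts4 encode secreted proteases that cleave proteoglycans. Adamts4 stood between 0.129 and 1.33 CPM in Ajcl at both times and went from 0.215, 0.420 and 0.583 to 2.78, 7.95 and 2.05 CPM in ByJcl, and Adamts1 had an interaction of 1.05 ± 0.35. In A-ADR3 both were the highest of the Ajcl Day 5 libraries.

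Integrin and focal adhesion genes, which couple the cytoskeleton to the matrix, had a median of 0.21 over 28 genes (0.11 without A-ADR1), with 5 at an unadjusted p below 0.05 in the positive and 1 in the negative direction. The shares over all genes were 2.86% and 1.96%, so 1 of 28 is near the background. Without A-ADR1 the counts were 3 and 1. The positive ones included Itgb1, the beta subunit shared by many matrix receptors, with an interaction of 0.60 ± 0.20, Ilk, the integrin-linked kinase, with 0.42 ± 0.14, and Itga5, the fibronectin receptor alpha subunit, with 0.49 ± 0.18. The negative one was Itgb5, a vitronectin receptor subunit, which fell in ByJcl by 0.99 on the log2 scale and stood at -0.27 in Ajcl, an interaction of -0.72 ± 0.21. In the list of TGF-beta, YAP and serum response factor targets the median was 0.16 over 28 genes and 0.03 without A-ADR1. That list also held components of these pathways, such as ligands and receptors, so the median is not one of targets alone. Ankrd1 rose in ByJcl by 1.99 against 0.65 in Ajcl, and Ccn1, a matricellular protein and YAP target, by 1.06 against 0.06. Ccn1 was variable in Ajcl after ADR, at 239, 253 and 443 CPM.

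Podocyte genes had interactions of the opposite sign. Of 32 podocyte identity genes tested, 27 had a negative interaction, and 12 (37.5%) had an unadjusted p below 0.05 in the negative and 1 in the positive direction, the latter being Nes, the gene of the intermediate filament nestin, at 0.58. The median was -0.38 over 12 libraries and -0.62 without A-ADR1, when 17 had a negative interaction at an unadjusted p below 0.05 and 4.16% of all genes did. Without A-ADR2 in place of A-ADR1 the median was -0.22 and 8 were negative at that level. Over all genes tested 1.96% were negative and 2.86% positive at that level with the 12 libraries. In ByJcl 15 of the 32 fell, where 2.79% of all genes tested did, and 2 rose, Cdkn1c and Nupr1. Cdkn1c, the gene of the cell cycle inhibitor p57, rose in Ajcl too, and edgeR called 0 as fallen there, although 12 were lower at an unadjusted p below 0.05, as were 3.78% of all genes, and DESeq2 called 5 in all. The mean log2 level of the list was 9.31, 9.13 and 9.25 in the ByJcl baseline libraries and 8.61, 8.31 and 8.36 after ADR. In Ajcl it was 8.85, 9.26 and 8.98 at baseline and 8.38, 8.99 and 8.55 after ADR. A-ADR1 and A-ADR3 thus lay in the range of the ByJcl Day 5 libraries, and A-ADR2 lay within the range of the Ajcl baseline. The same library, A-ADR2, was nearest to its baseline in the genes called in ByJcl. A-ADR1 held the most tubular RNA, and the part of that in its podocyte level was not tested.

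**Figure D3:**
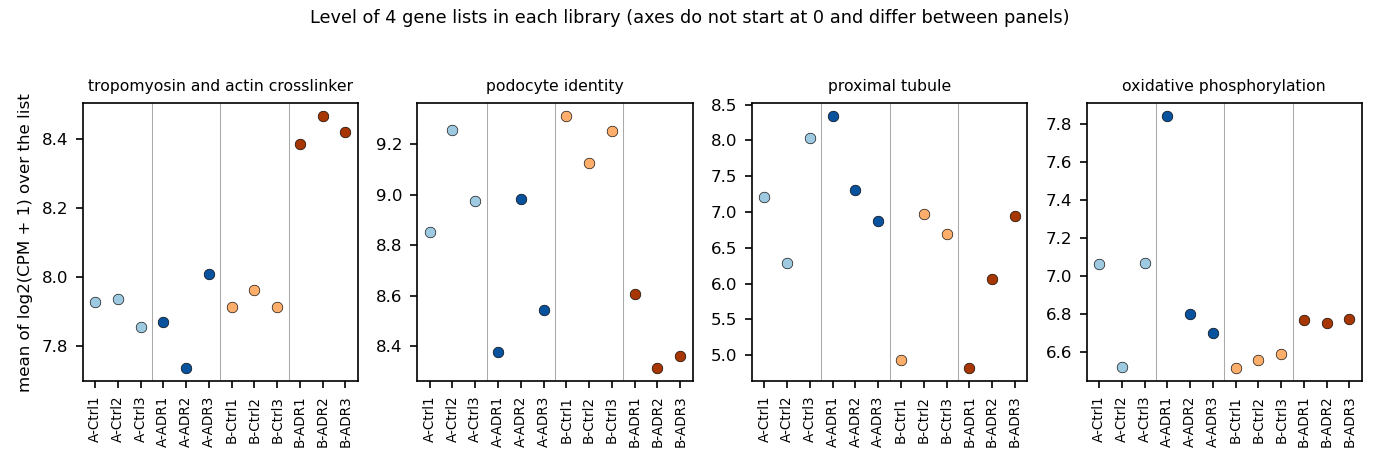
Mean of log2(CPM + 1) over the genes of 4 lists in each of the 12 libraries, with vertical axes that differ between panels and do not start at 0. The tropomyosin and actin crosslinker level of each ByJcl Day 5 library lay above that of all other libraries, and A-ADR1 held the highest proximal tubule (8.34) and oxidative phosphorylation (7.84) levels.

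Wt1 (chromosome 2, 104956625 to 105003961, GRCm39), a transcription factor that podocytes need throughout life, stood at 509.5, 461 and 507 CPM in ByJcl at baseline and 272, 214 and 216 CPM at Day 5. In Ajcl it stood at 402, 534 and 418 CPM and 308, 493 and 277 CPM. It fell in ByJcl by 1.07 on the log2 scale (adjusted p = 0.0107, edgeR) and stood at -0.33 in Ajcl (adjusted p = 0.746), where the groups overlapped, and the interaction was -0.75 ± 0.29, or -0.48 without A-ADR2. Nphs1 (chromosome 7, 30157740 to 30186675, GRCm39), the gene of nephrin, the backbone of the slit diaphragm, stood at 1617, 1436 and 1585 and then 894, 495 and 546 CPM in ByJcl. In Ajcl it was 1096, 1650.0 and 1253 CPM at baseline and 773, 1331 and 899 CPM at Day 5. Its interaction was -0.85 ± 0.36, with an interval from -1.63 to -0.06, and -1.03 without A-ADR1. Of the Ajcl Day 5 libraries only A-ADR2, at 1331 CPM, lay within the range of the Ajcl baseline for Nphs1. The widest difference in the list was that of Thsd7a (chromosome 6, 12311609 to 12749439, GRCm39), a membrane protein of the podocyte and an autoantigen of membranous nephropathy, with 1068, 897 and 918 and then 191, 123 and 143 CPM in ByJcl. The Ajcl libraries stood at 622, 1043 and 775 CPM and then at 220.5, 658 and 245 CPM, so that A-ADR2 alone lay within the range of its baseline. The interaction was -1.54 ± 0.51, and -1.82 without A-ADR1, where DESeq2 called it. Without A-ADR2 it was -0.88.

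Other podocyte genes with an unadjusted p below 0.05 included Dach1, Sema3g and Tdrd5, with interactions of -0.91 ± 0.29, -1.19 ± 0.40 and -0.83 ± 0.30. Without A-ADR2 the values of Dach1, Sema3g and Tdrd5 were -0.70, -0.82 and -0.64. Sema3g, a secreted semaphorin, fell in ByJcl by 2.60 on the log2 scale, and its change in Ajcl was -1.40 (adjusted p = 0.0789, edgeR). Of 20 slit diaphragm and foot process genes, 16 had a negative interaction, 3 of them at an unadjusted p below 0.05 (10 without A-ADR1, where the share over all genes was 4.16%), and the median moved from -0.27 to -0.50 when A-ADR1 was left out. When A-ADR2 was left out instead, the median was -0.16 and 1 gene was negative at that level. The share of all genes with a negative interaction at that level was 1.96% over 12 libraries. In ByJcl 7 of the 20 fell, beside 2.79% of all genes. In Ajcl edgeR called 0, with 2 higher and 6 lower at an unadjusted p below 0.05, where 5.32% and 3.78% of all genes stood, and DESeq2 called 2. Arhgap24, a Rac-inactivating protein of podocytes, had an interaction of -0.94 ± 0.33, Magi2, a scaffold of the slit diaphragm, -1.02 ± 0.45, and Synpo, the actin organiser synaptopodin, -0.73 ± 0.34. The interval of Synpo included 0. Without A-ADR2 the interactions of Magi2 and Synpo were -0.48 and -0.43. For Magi2 the Ajcl change was -1.34 (adjusted p = 0.164), with A-ADR1 at 62.5 CPM, A-ADR2 at 168 CPM and A-ADR3 at 74.0 CPM.

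The genes with the smallest p in the negative direction began with Ube2ql1 (chromosome 13, 69846148 to 69888097, GRCm39), a ubiquitin-conjugating enzyme family member. It stood at 32.7, 28.9 and 30.1 CPM in ByJcl at baseline and 7.21, 3.86 and 5.43 CPM at Day 5. In Ajcl it stood at 28.7, 30.2 and 27.1 CPM and 16.9, 23.8 and 10.1 CPM. The interaction of -1.72 ± 0.39 was the one negative call of DESeq2 over 12 libraries. Aifm3, an apoptosis-inducing factor family member, stood at 19.4, 15.8 and 19.5 CPM in ByJcl after ADR and at 53.8, 85.0 and 31.3 CPM in Ajcl, from baselines between 79.9 and 103 CPM. Wif1, a secreted inhibitor of Wnt signalling, fell in ByJcl by 2.51 and stood at -0.94 in Ajcl on the log2 scale. Pth1r, the parathyroid hormone receptor, stood at 590.4, 575 and 564 CPM and then 514, 461 and 314 CPM in Ajcl, and at 719, 609 and 699 CPM and then 318, 197 and 229 CPM in ByJcl. In each of these genes A-ADR3 was the lowest Ajcl Day 5 library, and A-ADR2 the highest in Ube2ql1, Aifm3 and Wif1.

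Trabd2b (chromosome 4, 114263218 to 114472295, GRCm39), a metalloprotease that cleaves Wnt proteins, stood at 189, 184 and 194 CPM in Ajcl at baseline, at 143, 152 and 85.8 CPM at Day 5, at 171, 163 and 159 CPM in ByJcl at baseline and at 60.6, 59.9 and 61.2 CPM at Day 5. Its interaction was -0.87 ± 0.24 over 12 libraries and -1.09 without A-ADR3, where edgeR's adjusted p was 0.0497. Ttc7 (chromosome 17, 87589947 to 87689807, GRCm39), a scaffold of the complex that makes phosphatidylinositol 4-phosphate at the plasma membrane, had the narrowest interval of the 12, from -1.07 to -0.36, with 72.1, 74.5 and 71.8 and then 44.3, 35.1 and 41.9 CPM in ByJcl and 60.2, 60.6 and 66.4 and then 61.4, 59.0 and 50.3 CPM in Ajcl. Ptgfr, the prostaglandin F receptor, and Flrt1, a cell adhesion protein, had interactions of -1.17 ± 0.33 and -1.38 ± 0.36, and Pnmal2 of -0.80 ± 0.22. Comp, a matrix protein of cartilage, Esr2, the estrogen receptor beta, and Lhfpl4, a partner of inhibitory synapse receptors, were of low abundance, each below 5 CPM in all libraries. Their interactions were -1.99, -1.67 and -2.77, and Lhfpl4 was the one of the 12 that did not pass in ByJcl. For Comp, Esr2 and Lhfpl4 each ByJcl baseline library lay above every Ajcl baseline library, as in 7.92% of all genes tested. The log2 difference of ByJcl from Ajcl went from 1.46 to -0.53 in Comp, 0.93 to -0.73 in Esr2 and 1.38 to -1.39 in Lhfpl4.

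Targets of p53 were called higher in both substrains. Of 37 tested, 11 rose in Ajcl and 24 in ByJcl and none fell in either, beside 0.283% and 4.41% of all genes called higher, with median log2 changes of 0.99 in Ajcl and 1.53 in ByJcl. In Ajcl 23 were higher and 0 lower at an unadjusted p below 0.05, against 5.32% and 3.78% of all genes, and DESeq2 called 20 in Ajcl and 30 in ByJcl. Of the 37, 32 had a positive interaction, 8 of them at an unadjusted p below 0.05, a level that 2.86% of all genes reached, and 0 in the negative direction, and the median interaction was 0.45 (0.42 without A-ADR1, with 5 at that level). Cdkn1a (chromosome 17, 29309936 to 29319701, GRCm39), the gene of the cyclin-dependent kinase inhibitor p21, stood at 21.3, 30.0 and 30.8 CPM in Ajcl at baseline and 293, 277 and 552 CPM at Day 5. In ByJcl it went from 22.7, 19.8 and 22.8 CPM to 629, 959.9 and 587 CPM. It rose in Ajcl by 3.77 (adjusted p = 0.000191, edgeR) and in ByJcl by 5.06 (adjusted p = 1.27e-05), and the interaction was 1.29 ± 0.38. A-ADR3 at 552 CPM was close to the lowest ByJcl library at 587 CPM. Mdm2, the ubiquitin ligase that degrades p53, rose in ByJcl by 1.25 and stood at 0.73 in Ajcl, with an interaction of 0.52 ± 0.25 (0.31 without B-ADR2) whose interval included 0.

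Psrc1 (chromosome 3, 108288765 to 108295547, GRCm39), a microtubule-binding protein of the mitotic spindle and a p53 target, showed the widest difference of the list. It stood at 0.693, 0.675 and 0.940 CPM and then 9.82, 9.48 and 18.2 CPM in Ajcl, and at 0.172, 0.420 and 0.328 CPM and then 24.1, 29.9 and 19.7 CPM in ByJcl. It rose in both substrains, by 4.02 in Ajcl (adjusted p = 0.000323, edgeR) and by 6.31 in ByJcl (adjusted p = 1.27e-05). The ByJcl baseline libraries lay below all Ajcl baseline libraries, so the interaction of 2.29 ± 0.48 joins a lower start with a higher end. Aen and Gtse1, p53 targets that act in apoptosis and in the exit from G2, rose in both substrains too, with interactions of 0.86 ± 0.29 and 1.19 ± 0.45. Of 30 cell cycle genes 25 had a positive interaction, with a median of 0.66, and 1 had an unadjusted p below 0.05, Ube2c, a ubiquitin-conjugating enzyme of mitosis, at 1.91. That is 1 of 30 beside 2.86% of all genes. Without A-ADR1 there were 4, beside 3.86%, and with at least 1 CPM in 3 libraries the median was 0.40. Top2a, the topoisomerase that ADR traps, stood at 10.4, 7.45 and 1.84 CPM in the ByJcl Day 5 libraries and at 3.00, 0.928 and 4.79 CPM in those of Ajcl, so the spread within each group was as wide as the difference. Its interaction was 1.63 ± 0.82, that of Cdk1 was 0.96 ± 0.47, and B-ADR1 was the highest library for both. Without B-ADR1 the interaction of Cdk1 was 0.57.

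The unfolded protein and integrated stress response list had a median interaction of -0.11 over 30 genes (0.07 without A-ADR1), with 17 negative and 4 at an unadjusted p below 0.05, all positive, beside 2.86% of all genes. Asns (chromosome 6, 7671667 to 7728461, GRCm39), asparagine synthetase, a target of the amino acid response, stood at 4.30, 3.73 and 4.92 CPM and then 4.16, 3.40 and 4.07 CPM in Ajcl, and at 2.78, 2.73 and 2.11 CPM and then 5.87, 5.97 and 4.90 CPM in ByJcl. The ByJcl libraries rose from below the Ajcl level, and the interaction was 1.29 ± 0.28. Mthfd2, a mitochondrial folate enzyme, and Psat1, an enzyme of serine synthesis, targets of the same response, rose in ByJcl by 1.57 and 1.67 and stood at 0.41 and 0.46 in Ajcl. Their interactions were 1.16 ± 0.37 and 1.21 ± 0.40, and that of Atf4, the transcription factor that drives the response, was 0.43 ± 0.20, or 0.27 without A-Ctrl1. These are the 4 genes with an unadjusted p below 0.05, and were named for that.

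Of 31 ribosome biogenesis genes, which make and process ribosomal RNA in the nucleolus, 30 had a positive interaction, with a median of 0.33 in both sets of libraries. Of the 31, 7 had an unadjusted p below 0.05 in the positive direction, against 2.86% of all genes, and 2 rose in ByJcl, a share near the 4.41% of all genes. In Ajcl edgeR called 0, with 0 at an unadjusted p below 0.05, and DESeq2 called 0. Nop58, a core protein of box C/D small nucleolar particles, rose in ByJcl by 0.73 against -0.05 in Ajcl, an interaction of 0.79 ± 0.22. Ddx21, a nucleolar helicase, and Polr1e, a subunit of RNA polymerase I, had interactions of 0.53 ± 0.17 and 0.78 ± 0.31. Polr1e and Pno1, a processing factor of the small ribosomal subunit, were among the 22 genes called by DESeq2 without A-ADR1. Pno1 had an interaction of 0.70 over 12 libraries and 1.04 over 11, with A-ADR1 at 31.8 CPM against 15.6 and 18.4 CPM in A-ADR2 and A-ADR3. Mrps18b, a mitochondrial ribosomal protein, was called there too, with an interaction of 0.91 without A-ADR1 and 0.78 with it.

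Immediate early genes, which also respond to tissue dissociation, had 35 of 37 positive interactions, a median of 0.35 and 7 in the positive direction at an unadjusted p below 0.05, which 2.86% of all genes reached. In ByJcl 20 of the 37 rose, and in Ajcl 1 did, against 4.41% and 0.283% of all genes. In Ajcl 15 were higher and 0 lower at an unadjusted p below 0.05, where 5.32% and 3.78% of all genes stood, DESeq2 called 4, and the median log2 change was 0.39. Gadd45b, a stress sensor, rose in ByJcl by 2.25 against 1.23 in Ajcl, with an interaction of 1.02 ± 0.38. Nr4a3, an orphan nuclear receptor, and Ptgs2, cyclooxygenase 2, had interactions of 1.56 ± 0.55 and 1.37 ± 0.46, and neither passed in a single substrain. Without B-ADR2 the interaction of Nr4a3 was 0.86. Txnrd1, thioredoxin reductase, rose in ByJcl by 1.04 against 0.29 in Ajcl, and the Nrf2 list that holds it had a median of 0.03 over 28 genes with 15 positive. Without A-ADR1 the Nrf2 median was 0.27 with 22 positive. At an unadjusted p below 0.05 stood 2 of the 28, Txnrd1 and G6pdx, beside 2.86% of all genes.

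Endothelial and mesangial marker lists had medians near that of all genes, at 0.06 over 27 genes and 0.03 over 21. At an unadjusted p below 0.05 stood 1 endothelial gene in each direction, and 4 mesangial genes (19%) in the positive and 0 in the negative direction, against 2.86% and 1.96% of all genes tested. In the endothelial list Cd34, a sialomucin, had an interaction of 0.53 and Cldn5, the tight junction protein claudin 5, of -1.07, both at an unadjusted p below 0.05. In the mesangial list Mcam, a cell adhesion molecule of pericytes, had an interaction of 0.67 ± 0.17, and Akap12, a scaffold of protein kinase A, of 1.42 ± 0.46, with 338, 706 and 336 CPM in the ByJcl Day 5 libraries against 92.5, 159 and 211 CPM in those of Ajcl. B-ADR2 was the highest library for Akap12, and without it the interaction was 0.94. In the list of chemokines, cytokines and endothelial activation genes, whose median was 0.30 over 27 genes, F3 (chromosome 3, 121516610 to 121528820, GRCm39), the gene of tissue factor, which starts the clotting cascade, stood at 54.7, 60.2 and 46.6 CPM and then 46.2, 42.1 and 43.3 CPM in Ajcl, and at 49.4, 45.2 and 46.9 CPM and then 51.3, 75.2 and 95.2 CPM in ByJcl. Neither change passed (adjusted p = 0.741 and 0.0572, edgeR), and the interaction was 0.94 ± 0.26. Thbd, thrombomodulin, which turns thrombin toward anticoagulation, rose in ByJcl by 0.82 with an interaction of 0.67 ± 0.28, or 0.34 without B-ADR2.

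In the VEGF and angiopoietin list, members with an unadjusted p below 0.05 lay on both sides, 2 positive and 3 negative of 25, beside 2.86% and 1.96% of all genes, with a median of -0.16. Without A-ADR1 there were 2 and 5, beside 3.86% and 4.16%. Angpt2, an antagonist of the Tie2 receptor, stood at 71.3, 71.2 and 64.9 CPM and then 51.2, 54.5 and 54.9 CPM in Ajcl, and at 79.1, 75.9 and 85.9 CPM and then 77.9, 97.9 and 99.2 CPM in ByJcl, an interaction of 0.56 ± 0.16. All 3 Ajcl Day 5 libraries lay below the Ajcl baseline, although the change did not pass (adjusted p = 0.269, edgeR). Vegfa, the growth factor that podocytes supply to the endothelium, fell in ByJcl by 1.61 on the log2 scale and stood at -0.86 in Ajcl, an interaction of -0.75 ± 0.28. Dll4, a Notch ligand, and Esm1, a secreted proteoglycan, both targets of VEGF signalling in endothelium, had interactions of -0.84 ± 0.31 and -1.65 ± 0.55.

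Of 40 interferon-stimulated genes, 23 rose in ByJcl and 2 in Ajcl, beside 4.41% and 0.283% of all genes. In Ajcl, 27 were higher and 1 lower at an unadjusted p below 0.05, against 5.32% and 3.78% of all genes, and DESeq2 called 11. The median log2 change was 0.99 in ByJcl and 0.71 in Ajcl, and the median interaction was 0.20 over 12 libraries and 0.07 without A-ADR1. Igtp, an interferon-inducible GTPase, rose in ByJcl by 2.05 and stood at 0.99 in Ajcl, where A-ADR3 reached 41.97 CPM against 15.7 and 17.9 CPM in the other two. The interaction of Igtp was 1.05 ± 0.50, 1.64 without A-ADR3 and 0.73 without B-ADR1. Mx1, an antiviral GTPase, was at 2 to 42 counts in all libraries. H2-Q6 (chromosome 17, 35643777 to 35655332, GRCm39), a non-classical MHC class I gene, held 412 to 562 counts in the Ajcl baseline libraries and 218 to 259 after ADR. The ByJcl libraries held 0 to 4 counts at baseline and 7 to 12 at Day 5, so its interaction of 3.28 ± 0.63 rests on few reads in ByJcl, and reads of its near-identical paralogs could be assigned to it or away from it. The 17 genes of the MHC list had a median of 0.44, with 1 at an unadjusted p below 0.05. Myeloid and lymphocyte markers were of low abundance, with medians of 0.29 and 0.38 (0.12 and 0.48 without A-ADR1) and 1 and 0 genes at an unadjusted p below 0.05.

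The list of kidney injury and parietal epithelial genes had a median of -0.02 over 24 genes (0.33 without A-ADR1), with 4 at an unadjusted p below 0.05, all positive, beside 2.86% of all genes. Cd44, a hyaluronan receptor of activated parietal cells, stood at 12.1, 13.2 and 11.2 CPM and then 10.1, 10.9 and 16.0 CPM in Ajcl, and at 10.7, 12.4 and 13.7 CPM and then 24.4, 29.6 and 21.6 CPM in ByJcl, an interaction of 1.01 ± 0.27. Anxa1 and Anxa3, annexins that bind membranes in a calcium-dependent way, rose in ByJcl by 1.11 and 1.99 and stood at 0.33 and 0.98 in Ajcl. Vim, the intermediate filament vimentin, rose by 1.17 against 0.58, an interaction of 0.58 that was 0.38 without A-ADR2. None of the 4 passed in Ajcl by edgeR.

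The medians of tubular and housekeeping lists changed when A-ADR1 was left out. The proximal tubule list had a median interaction of -0.52 over 12 libraries and -0.05 over 11, and the distal nephron list of -0.74 and -0.24, with 0 of 30 and 0 of 28 genes at an unadjusted p below 0.05 over 12 libraries. Oxidative phosphorylation went from -0.08 to 0.35, and cytosolic ribosomal proteins from -0.04 to 0.26, when A-ADR1 was left out. Over 12 libraries 5 of the 37 and 21 of the 54 had a positive interaction, with 0 in either list at an unadjusted p below 0.05. All 37 and all 54 were positive, 9 and 2 of them at that level beside 3.86% of all genes, without A-ADR1. In that library the summed level was 10879 CPM for the 37 oxidative phosphorylation genes, against 5724 and 5318 CPM in A-ADR2 and A-ADR3, and 20657 CPM for the 54 ribosomal protein genes, against 12093 and 11480 CPM. The list of histones held replication-dependent ones, whose transcripts mostly lack a poly(A) tail, and some that are not replication-dependent. It had a median of -0.77 with 4 of 19 negative at an unadjusted p below 0.05, which was -0.38 with 1 without A-ADR1. Heat shock chaperones had 0.01 and 0.23 over 19 genes. With the proximal tubule level as covariate the medians were 0.55 for tropomyosins and actin crosslinkers, -0.50 for podocyte identity and 0.07 for oxidative phosphorylation. The proximal tubule list itself had 0.02, which follows from the adjustment, since the covariate is the mean level of that list.

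**Figure D4:**
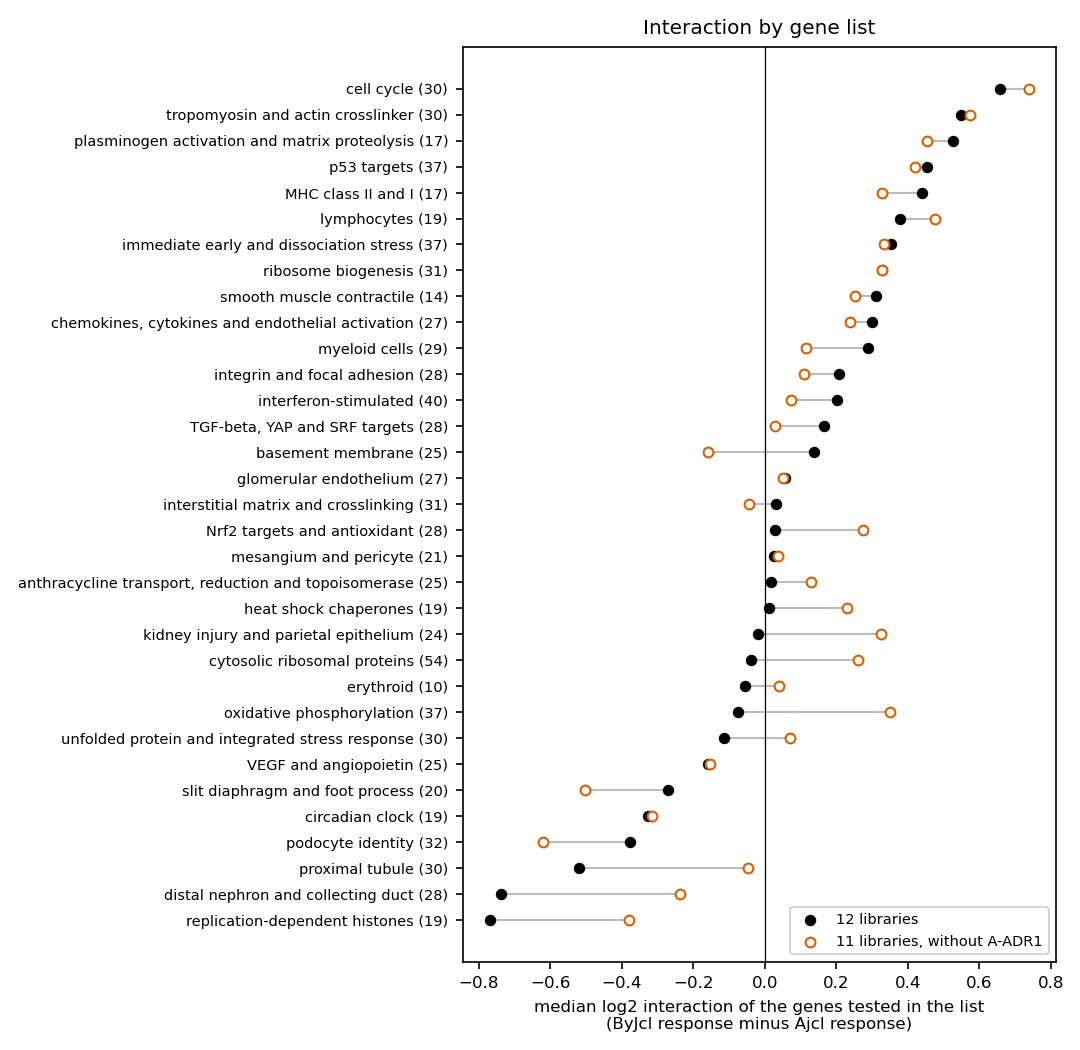
Median log2 interaction (horizontal axis) of the genes tested in each of 33 lists, with the number of genes in brackets, over 12 libraries (black) and without A-ADR1 (open). The tropomyosin and actin crosslinker median stayed near 0.55 and 0.57, whereas the oxidative phosphorylation median went from -0.08 to 0.35.

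Few genes had library ranges that did not overlap and lay in opposite order in the 2 substrains. In 19 genes (0.114% of those tested) every Ajcl Day 5 library lay below every Ajcl baseline library while every ByJcl Day 5 library lay above every ByJcl baseline library, and in 8 genes (0.0482%) the reverse held. F3, H2-Q6, Mx1 and Prkx were among the 19. These ranges are a description of 3 libraries a group and no test, and neither change of F3 passed. Prkx, a cyclic AMP-dependent kinase encoded on the X chromosome (chromosome X, 76804575 to 76839905, GRCm39), stood at 80.4, 80.2 and 77.0 CPM and then 65.9, 74.2 and 75.1 CPM in Ajcl, and at 75.5, 69.0 and 67.6 CPM and then 88.0, 110.3 and 97.1 CPM in ByJcl. Its interaction was 0.62 ± 0.15, or 0.54 without A-ADR1. Galnt15, a glycosyltransferase, was the gene with the largest negative value among DESeq2's calls without A-ADR1. It stood at 0.740, 1.08 and 1.75 CPM and then 1.12, 6.14 and 3.56 CPM in Ajcl and between 2.13 and 3.99 CPM in all ByJcl libraries, with an interaction of -1.92 ± 0.70 over 12 libraries and -2.38 over 11. Neither substrain's change of Galnt15 passed. Ankrd44, Dusp15 and Znrf3 were called there in the same direction, at -0.76, -1.41 and -0.88 by edgeR without A-ADR1, and 1 further gene had only a clone name. In each of the 3 named, A-ADR2 was the highest of the Ajcl Day 5 libraries. Over 12 libraries Znrf3 had -0.57, and -0.39 without A-ADR2.

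Among 19 genes of the circadian clock the median was -0.33, with 2 positive and 2 negative at an unadjusted p below 0.05, beside 2.86% and 1.96% of all genes. Without A-ADR1 the counts were 1 and 3. Arntl, encoding BMAL1, had an interaction of 1.74 ± 0.68 (1.16 without B-ADR3), Nfil3, a repressor of clock outputs, of 1.58 ± 0.58, and Per3, a period gene, of -0.87 ± 0.35. Of 25 genes that transport or reduce anthracyclines or encode topoisomerases, 1 was positive and 1 negative at an unadjusted p below 0.05, with a median of 0.02. Without A-ADR1 the median was 0.13 and 1 was positive and 4 were negative, beside 3.86% and 4.16% of all genes. Abcb1a, the drug efflux pump P-glycoprotein, stood at 22.6, 23.3 and 26.7 CPM and then 13.04, 18.7 and 19.3 CPM in Ajcl, and at 15.7, 24.6 and 23.9 CPM and then 21.2, 40.7 and 32.3 CPM in ByJcl, an interaction of 1.06 ± 0.35. Top1mt, the mitochondrial topoisomerase, fell in both substrains, by 1.49 in Ajcl (adjusted p = 0.0239, edgeR) and by 2.24 in ByJcl (adjusted p = 0.000925), on the log2 scale.

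**Figure D5:**
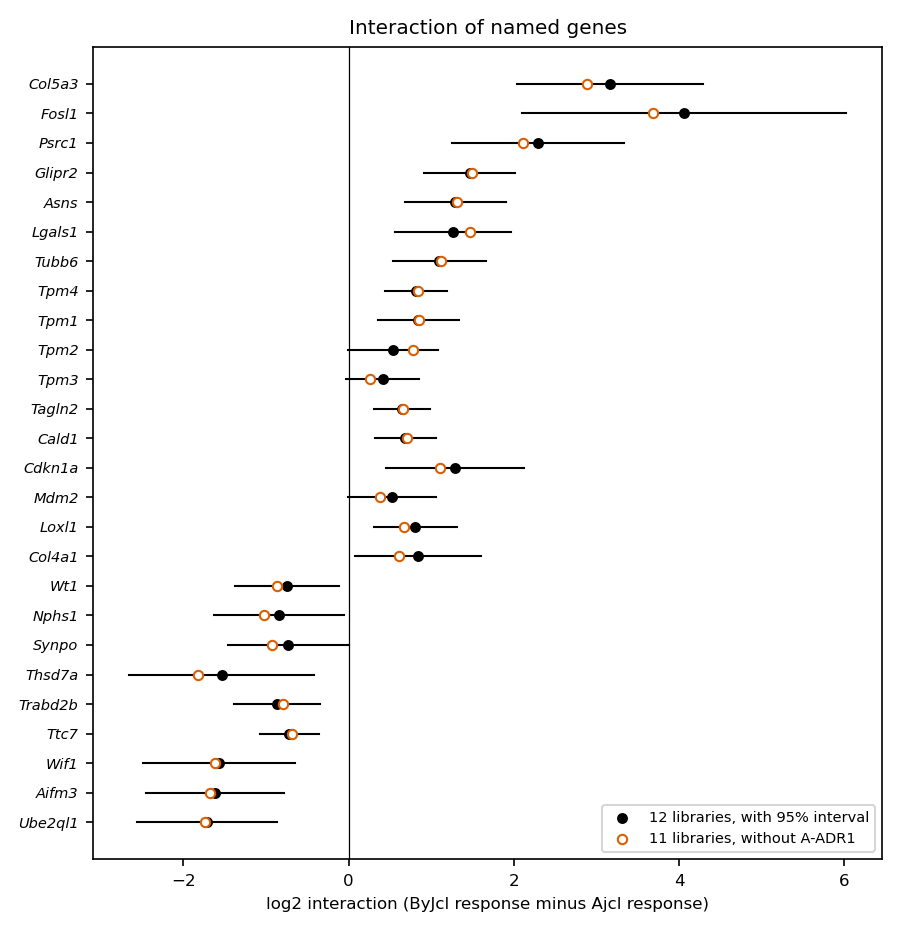
Log2 interaction of 26 named genes with the 95% confidence interval over 12 libraries (black) and the value without A-ADR1 (open). Intervals of Col5a3, Glipr2, Tubb6, Tpm4 and Ube2ql1 excluded 0, those of Tpm2, Tpm3, Mdm2 and Synpo included it, and no interaction passed adjustment over all genes in edgeR.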

How the data were processed

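Glomeruli had been isolated by perfusion with magnetic beads and collagenase digestion, and strand-specific poly(A) libraries had been sequenced as read pairs. The authors checked reads with FastQC, trimmed with Trimmomatic, aligned with STAR to GRCm39, and obtained counts per gene symbol from featureCounts. The annotation and strand setting are not given in the sources used here, so overlapping and antisense genes are uncertain. The deposited values are raw whole-number counts, with baseline and Day 5 in separate tables joined here by symbol. Between 77.08 and 82.85% of the counts from 1 to 49 in a library were even.

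Groups came from the sample labels. After edgeR's filterByExpr and TMM scaling, 16612 genes were fitted over the 4 groups with edgeR's quasi-likelihood test (edgeR 4.0.16, R 4.3.3), with Benjamini-Hochberg adjustment over all genes tested. The residual degrees of freedom were 8, and 95% intervals are per gene. DESeq2 1.42.0 and limma-voom (limma 3.58.1) were alternatives, as were other scalings, filters, left-out libraries, a replicate block and the proximal tubule level as covariate. Code was tested on simulated data. In each of the 12 pairs of libraries within a group, counts differed by more than sampling noise. The gene lists and named genes were chosen with earlier results of these data known. Named genes were the 12 with the smallest interaction p in each direction, 6 in each direction without A-ADR1, 4 per list and 12 fixed genes, and clone names were counted only. A gene that this rule names is not reported here by name. Nes, Cdkn1c, Nupr1, Ube2c, G6pdx, Cd34 and Cldn5 were named after their values were seen. Gene positions are from GENCODE on GRCm39 (93 of 95 genes matched 1 entry), and promoter windows from RefSeq on GRCm38.p6. Figures were drawn with matplotlib 3.10.9.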

Additional observations from a re-analysis of the deposited data

Results flagged for a closer look

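Of the tests of the difference between the substrains' responses, DESeq2's Wald test called 7 genes over the 12 libraries, and they are listed here because the effect of ADR differed between Ajcl and ByJcl by that test. The log2 interactions by DESeq2 were 3.15 for Col5a3, 1.45 for Glipr2, 3.34 for H2-Q6, 2.28 for Psrc1, 1.28 for Asns and 4.08 for Fosl1, and -1.73 for Ube2ql1. None of the 7 passed edgeR's quasi-likelihood test over the same libraries. Fosl1 was not among DESeq2's 22 calls without A-ADR1.

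In 19 genes, H2-Q6 among them, every Ajcl Day 5 library lay below, and every ByJcl Day 5 library above, all baseline libraries of its own substrain, and in 8 genes the directions were exchanged. They are listed for this order of the libraries alone, the difference was not tested for them as a group, and nothing is read from their number. They are 0.114% and 0.0482% of the 16612 genes tested.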

How the results depend on the processing

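Depth limited genes at few counts, such as Atcay, for which no fold is given. The 95 named genes kept the direction of their interaction in all 2087 alternative values. Most of these genes were chosen by this contrast, and each setting reused at least 11 of the 12 libraries. This agreement is therefore no test. Of the 2087 values, 30 passed a threshold that the 12-library edgeR test did not. The count of interaction calls by edgeR was 0 under RLE scaling, both other filters, robust fitting, the tubule covariate and limma-voom, 7 by DESeq2 and 22 by DESeq2 without A-ADR1. Leaving out 1 library gave 0 to 2 interaction calls, 2 only without A-ADR3, 13 to 148 Ajcl calls and 430 to 1800 ByJcl calls. Ajcl calls numbered 14, 13 and 19 without A-Ctrl1, A-Ctrl2 and A-Ctrl3, and 148 and 22 without A-ADR2 and A-ADR3. ByJcl calls numbered 476, 480 and 703 without B-Ctrl1, B-Ctrl2 and B-Ctrl3, 430 without B-ADR2 and 1800 without A-ADR1. DESeq2 called 326 genes in Ajcl and 1999 in ByJcl, and 301 and 2694 without A-ADR1. Same-numbered libraries did not pair, since 7 of 18 correlations of their deviations exceeded 0.1 (range -0.39 to 0.53). With the replicate block the calls were 0 for the interaction, 26 in Ajcl and 1109 in ByJcl, and without A-ADR1 they were 0, 26 and 1592. Without A-ADR1 the median interaction was -0.50 for the slit diaphragm, -0.62 for podocyte identity, 0.25 for smooth muscle and -0.16 for basement membrane. It was 0.0285 for the TGF-beta, YAP and SRF list, 0.0707 for the stress response and 0.33 for kidney injury. For oxidative phosphorylation it was 0.35, for ribosomal proteins 0.26 and for histones -0.38. In leave-one-out medians chosen after seeing the data, tropomyosins and actin crosslinkers stood at 0.43 without A-ADR2 and 0.58 without A-ADR3, podocyte identity at -0.22 and -0.39, and the slit diaphragm at -0.16 and -0.23. With at least 1 CPM in 3 libraries, fewer genes were tested and the medians were 0.40 for the cell cycle and 0.22 for lymphocytes. The correlation of the responses was 0.43 without a filter and 0.73 with the stricter one. For the other changes with a setting the cause was not tested.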
